A study of Homo sapiens with 120 samples.

Results

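The genes described here encode proteins of the mitochondrial ribosome. They were chosen by name as the rows of the expression table called MRPL or MRPS with a number and an optional letter A, B or C, with pseudogene names left out. The rule found 75 genes (76 rows, since MRPS16 stands on 2 and the row with the higher mean was kept) among 27118 distinct names, 46 of them MRPL and 29 MRPS. MRPL12, which the rule would cover, has no row under that name and is not described.

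Mitochondria keep a small genome of their own, and the few proteins it encodes, all parts of the respiratory chain or ATP synthase, are made inside the organelle on a dedicated ribosome. The RNA of that ribosome comes from the mitochondrial genome, whereas its proteins are encoded in the nucleus, made in the cytosol and imported. Some of these proteins descend from bacterial ribosomal proteins and others were added in mitochondria. Counted by the structure of the particle, 48 members belong to the large subunit, including MRPS18A and MRPS30 in spite of their names, and 26 to the small subunit. MRPS36 is now placed in the oxoglutarate dehydrogenase complex instead of the ribosome, and it was kept because the rule is by name. By origin, a list of gene numbers classed 44 as conserved in bacteria and 28, MRPL55 among them, as specific to mitochondria. Such a list may misplace single members.

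The libraries came from CFPAC-1, an established human pancreatic ductal adenocarcinoma line, and every cell library in the series is of this line. One experiment, with no treatment, set cells collected on microrafts (tiny culture surfaces that can be released with their cells) beside cells taken up by the Fluidigm C1 (an automated microfluidic system) and beside bulk RNA of about 10000 cells. It held 4 bulk libraries, 10 each of rafts with 0, 1 and 2 cells, and 5 each of C1 captures with 0, 1 and 2 cells. The other experiment held 8 proliferative and 8 nonproliferative rafts in each of 4 arms, untreated, saline, gemcitabine at 2 nM and gemcitabine at 5 nM, with the number of cells given as unknown. Gemcitabine is a cytidine analog that blocks DNA synthesis. The last 7 libraries were made from water. The labels name no culture, so rafts of an arm may share 1, and p-values then measure only the spread between rafts. Index pairs in the titles repeat between arms, so treatment and library pool cannot be told apart. Some pairs of C1 captures also repeat among rafts and bulk libraries. Differences of the C1 from rafts or bulk thus cannot be told apart from library pool either.

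Values are FPKM, fragments scaled by transcript length and library total, and a gene counts as detected at 1 FPKM or more. Read counts are not given, which leaves sequencing depth unknown, and a gene listed at 0 may be a failed estimate. Rafts with 1 cell held 4804 to 8461 detected rows, C1 captures with 1 cell 8560 to 10474 and bulk 8570 to 10581. Empty C1 captures held 865 to 7953, and 12 of the 64 rafts of the arms held fewer than 1000. Of 10 duct epithelium markers in the table, 9 were detected in bulk, with CFTR listed at 0 in all 4 libraries, and fibroblast markers were not detected in bulk. Titles divide the rafts of the first experiment into 2 series of 5 per group, which were also taken apart below. Bulk titles come in 2 styles too, but all 4 bulk libraries were kept when a raft series was compared with bulk. In libraries from many cells, fewer cells and less RNA per cell cannot be told apart.

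Promoter stretches are shown as sequence context for the genes, and their letters were not related to any difference described below. RefSeq promoter sequences of GRCh38.p14, from 250 bases before to 50 bases after the start of the gene, were found for 67 of the 75 genes. A motif of the ETS family, CCGGAAG, occurred on either strand in 28 of the 67 (41.8%) and in 12.8% of 22199 promoters of protein-coding genes. The letters AAGATGGC, bound by YY1, occurred in 20 (29.9%) against 3.53%. The NRF1 letters (GCGC, any base, then TGCGC), named for a regulator of nuclear genes for mitochondria, occurred in 7 (10.4%) against 7.39%, and the SP1 letters GGGCGG in 42 (62.7%) against 56.3%. An ETS or a YY1 match stood in 40 member promoters (59.7%) and 15.6% of the coding promoters, 8 members had both, and in none did these overlap. These matches describe letters and not bound sites. The stretches below carry 1 or 2 matches upstream of the start and at most 12 bases annotated as exon of any gene. They are written 5′ to 3′ on the strand of the gene, with matches of the ETS, YY1 and NRF1 letters on either strand in capitals.
MRPL3: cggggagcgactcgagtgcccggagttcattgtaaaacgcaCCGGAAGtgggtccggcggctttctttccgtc
MRPS18A: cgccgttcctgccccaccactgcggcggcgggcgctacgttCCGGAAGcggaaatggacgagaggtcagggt
MRPS22: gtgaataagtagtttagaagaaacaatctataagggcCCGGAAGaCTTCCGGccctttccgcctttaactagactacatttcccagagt
MRPL52: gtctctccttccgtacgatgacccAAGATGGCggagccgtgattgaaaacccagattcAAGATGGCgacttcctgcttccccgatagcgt
MRPL45: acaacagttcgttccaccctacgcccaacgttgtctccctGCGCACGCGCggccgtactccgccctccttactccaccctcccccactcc
The MRPL3 stretch lies at chr3:131502972-131503044 on the minus strand and the MRPS18A stretch at chr6:43687792-43687863, also minus. The MRPS22 stretch, at chr3:139343870-139343958 on the plus strand, holds an ETS match on each strand, 1 base apart. MRPL52, at chr14:22829765-22829854 on the plus strand, holds the YY1 letters in 2 places, and MRPL45, at chr17:38296939-38297028 on the plus strand, holds the NRF1 letters.

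In bulk RNA the whole set was expressed, over a wide range of levels. All 75 genes were detected in 3 of the 4 bulk libraries and 73 in replicate 1, and together they took 1.75 ± 0.07% of all FPKM (SD, n = 4). Mean levels ran from 5.54 FPKM for MRPL4 to 828.6 for MRPS21, with a median of 122 over the genes. The median was 127 over the large subunit and 112 over the small subunit. Summed over genes, the large subunit had 2.27 ± 0.13 times the FPKM of the small one.

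MRPS21, the small-subunit relative of bacterial S21, stood at 943, 810, 806 and 756 FPKM in the 4 bulk libraries. MRPL33, a relative of bacterial L33, stood at 720, 562, 601 and 542 FPKM. MRPL27, another protein with a bacterial relative, stood at 572, 443, 494 and 511 FPKM. These 3 led the order of bulk means, and the ranges of MRPL33 and MRPL27 overlapped. The next were MRPL51 at 497 ± 135 FPKM, MRPL21 at 430 ± 102 and MRPL14 at 428 ± 99.9 (SD, n = 4), and these 3 did not differ beyond their spread.

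At the low end stood MRPL4 at 0, 6.71, 7.92 and 7.54 FPKM, MRPS25 at 8.45 ± 8.03, MRPL19 at 11.7 ± 1.83 and MRPL2 at 14.4 ± 8.02. MRPL4, MRPL19 and MRPL2 have bacterial relatives and MRPS25 has none. Their ranges overlapped in part, and MRPL4 was listed at 0 in bulk replicate 1. The libraries do not mark strand per the kit named in the labels, and the annotation (GENCODE release 29) puts exons of 26 members over exons of other coding genes. MRPL49, for example, overlaps FAU, a highly expressed cytosolic ribosomal protein gene on the opposite strand, so levels of such members are uncertain. Named pseudogenes, which may share reads, exist for 33 members, and MRPS21 has 8.

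**Figure D1:**
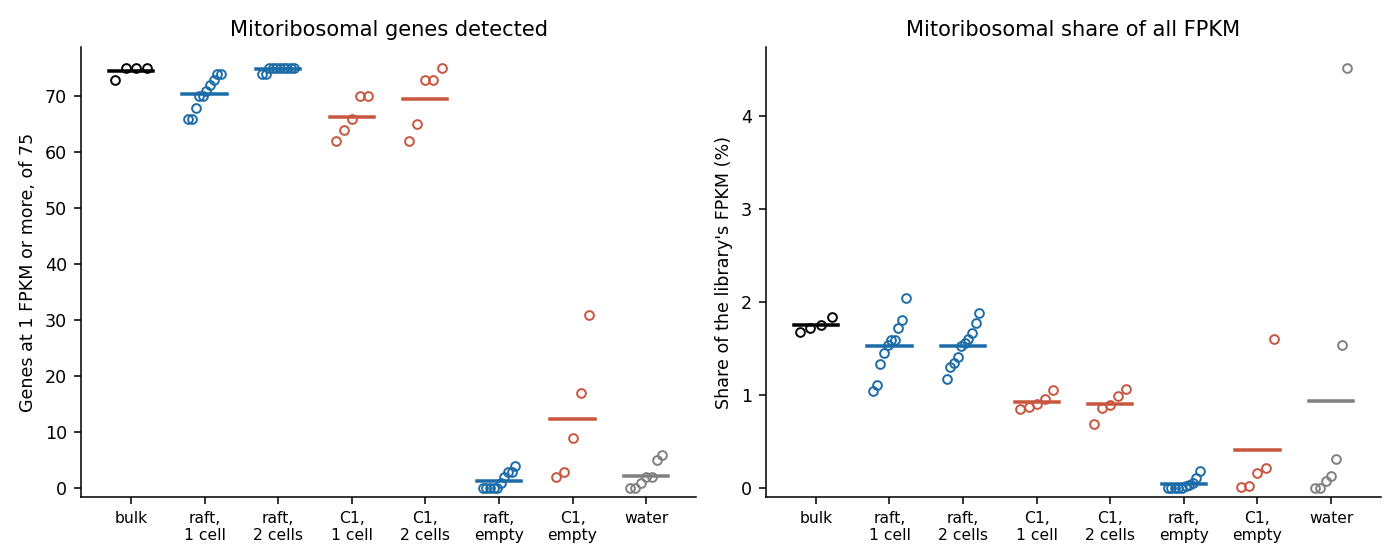
Each point is 1 library of the isolation experiment or of water, and each bar is the group mean. The left panel gives the members detected (of 75) and the right panel their share of all FPKM (%): rafts with 2 cells held 74 or 75 members in every library, and the shares of C1 captures with 1 cell (0.850 to 1.06%) lay below all bulk libraries (1.68 to 1.84%).

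A single cell on a raft held nearly the whole set. Rafts with 1 cell had 70.4 ± 2.99 members detected (SD, n = 10, 66 to 74) and rafts with 2 cells 74.8 ± 0.42 (n = 10, 74 or 75). C1 captures had 66.4 ± 3.58 with 1 cell (n = 5, 62 to 70) and 69.6 ± 5.73 with 2 cells (n = 5, 62 to 75), although they held more detected rows in all. The ranges of rafts and captures with 1 cell overlapped between 66 and 70. Empty rafts had 1.3 ± 1.57 (n = 10), with none in 1 title series and 2.6 on average in the other. Water had 2.29 ± 2.36 (n = 7) and empty C1 captures 12.4 ± 12 (n = 5, 2 to 31).

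As a share of all FPKM, members took 1.53 ± 0.31% in rafts with 1 cell and 1.53 ± 0.22% in rafts with 2 cells. C1 captures stood at 0.929 ± 0.083% with 1 cell and 0.906 ± 0.143% with 2 cells. The C1 shares lay below every bulk library, and 1 capture with 1 cell (1.06%) stood above the lowest raft with 1 cell (1.05%). The cytosolic ribosomal protein genes had the opposite order, with 9.82 ± 1.90% in rafts and 14.7 ± 2.79% in C1 captures with 1 cell. The groups of single and paired cells carry no label of separate cultures, so each counts as 1 sample and no test was made between them. Their differences are given on the log2(FPKM + 1) scale over rows detected in at least 5 of the libraries compared, with 2-fold (a difference of 1) as the size called.

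With 1 cell per library, most members were higher on rafts than on the C1, while the median gene was slightly lower. The difference was positive for 62 of 75 members, with a median of 1.19 against -0.28 over all 10176 rows. At least 2-fold higher were 40 members (background 25.9%) and at least 2-fold lower were 2 (background 34.7%). With the rafts of title series 1 alone the median was 1.18, and with series 2 alone 1.36. Large-subunit members had a median of 1.40 (27 of 48 past 2-fold) and small-subunit members 1.08 (13 of 26). The cytosolic ribosomal proteins had a median of -0.44, with 5 of 75 at least 2-fold higher and 13 lower, and 73 nuclear respiratory chain genes a median of 0.58.

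MRPS34, a small-subunit protein specific to mitochondria whose loss is known in mitochondrial disease, had the largest difference (5.30). It lay between 52.6 and 554 FPKM in the 10 rafts (median 188) and at 7.76, 6.58, 0, 0 and 30.9 FPKM in the 5 C1 captures. Every raft was above every capture. In bulk it stood at 40.5, 59.6, 109 and 105 FPKM, below the median raft in all 4 libraries and above every capture. MRPL41, a large-subunit protein, followed at 5.07, with 58.2 to 277 FPKM in rafts (median 122) and 0, 0, 77.4, 0 and 7.12 in captures. Its ranges overlapped through the capture at 77.4 FPKM.

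MRPL37, specific to mitochondria, differed by 4.69, and lay between 21.02 and 418 FPKM in rafts and between 0 and 50.5 in captures. MRPL23, which lines the exit of the nascent protein tunnel, differed by 4.52, with 9 of 10 rafts and 2 of 5 captures detected. MRPS2, a relative of bacterial S2, differed by 3.90, and no capture exceeded 1.52 FPKM while the median raft stood at 34.3. MRPL49 differed by 3.77, with the caution on its overlap with FAU. Thus 3 of the 6 largest differences were of genes listed at 0 in 3 of 5 captures. Ranges did not overlap, with rafts higher, for MRPS34, MRPL1, MRPL38 and MRPS18C (4 members, background 1.87%), a set named after its values were seen.

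The other direction was rarer. Of the 3 human relatives of bacterial S18, MRPS18B and MRPS18C belong to the small subunit and MRPS18A to the large one. MRPS18B stood at 88.8, 307, 176, 254 and 208 FPKM in captures and at 0 to 223 in rafts (median 54.2), a difference of -2.24. MRPS18C stood at 19.3, 29.7, 29.6, 32.7 and 43.4 FPKM in captures, 45.0 to 428 in rafts and 281 to 425 in bulk. MRPS18A stood at 378, 355, 419, 263 and 127 FPKM in captures, 93.1 to 445 in rafts and 53.6 to 149 in bulk. Relative to bulk the means of the 3 paralogs thus lay on different sides in the same captures, with MRPS18A and MRPS18B above it and MRPS18C below it without overlap. MRPS31 differed by -1.58 and was listed below 1 FPKM in 6 of 10 rafts but in no capture. MRPL53 (-0.92), MRPL30 (-0.78), MRPL47 (-0.65) and MRPL10 (-0.60) completed the 6 lowest.

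**Figure D2:**
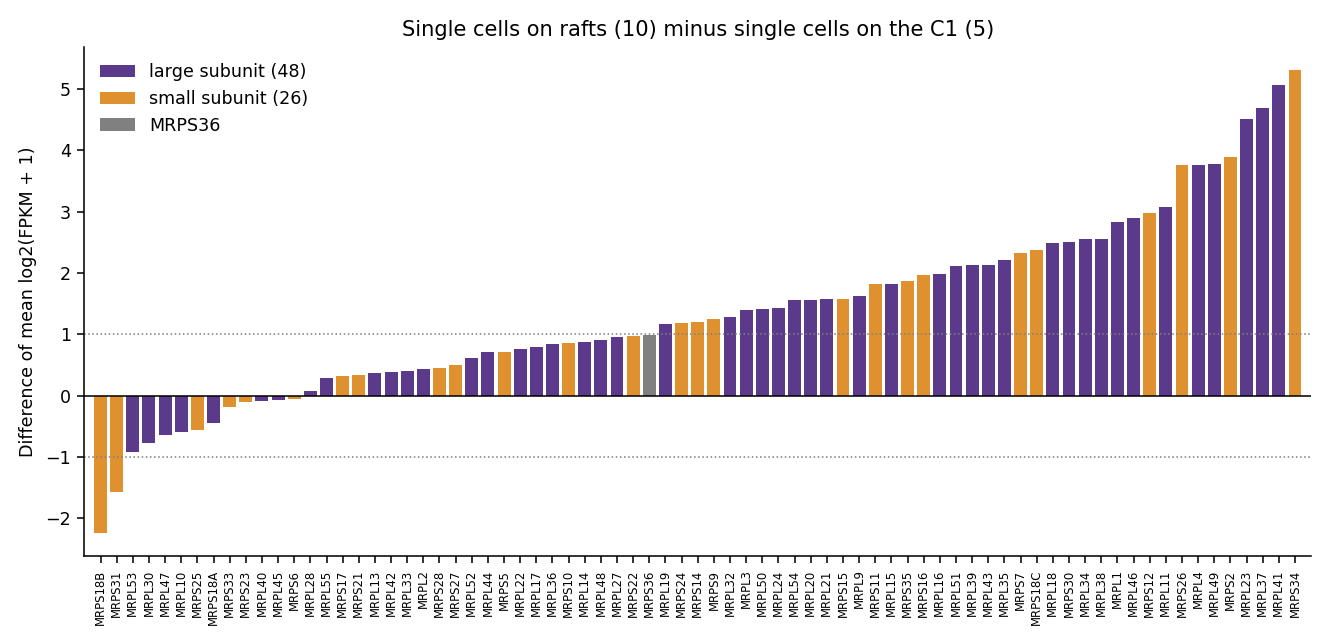
Each bar is 1 of 75 members, in order of the difference of mean log2(FPKM + 1) between 10 rafts and 5 C1 captures with 1 cell, and dotted lines mark 2-fold. Positive bars (62) outnumber negative ones (13), in both subunits, from -2.24 (MRPS18B) to 5.30 (MRPS34).

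Pairs of cells gave a similar picture. Rafts with 2 cells exceeded C1 captures with 2 cells for 71 of 75 members, with a median of 1.27 against 0.02 over 11528 rows. At least 2-fold higher were 43 members (background 28.3%) and none was 2-fold lower (background 28.1%). Without any overlap 13 members were higher on rafts (background 5.2%). MRPL41 (6.26), MRPL23 (5.42) and MRPS34 (4.24) again led, followed by MRPS26 (4.12). All 10 rafts held MRPL41 (31.03 to 294 FPKM), and 1 of the 5 captures did, at 11.9 FPKM.

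Against bulk, the C1 captures with 1 cell were low for most members. The difference was negative for 67 of the 74 members measured (MRPL4 was detected in too few of these libraries), with a median of -1.83 against -0.29 over 9665 rows. At least 2-fold lower were 57 members (background 35.4%) and higher were 3 (background 25.1%), namely MRPS18A (1.72), MRPS25 (1.57) and MRPS18B (1.27). For 35 members every capture lay below every bulk library (background 13.8%). The furthest below were MRPL23 (-5.24), MRPL41 (-4.64), MRPL37 (-4.59) and MRPL50 (-4.27). MRPL1, a relative of bacterial L1, stood at 5.14, 5.82, 7.58, 8.10 and 17.3 FPKM in captures and at 250, 190, 124 and 121 in bulk.

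Rafts with 1 cell differed from bulk about as much as other genes did. The median over members was -0.56 and over 9648 rows -0.61, with 26 members at least 2-fold lower (background 34.9%) and 7 higher (background 7.42%). MRPL38 was the furthest above bulk (2.52), at 44.3 to 145 FPKM in rafts and at 5.12, 12.2, 32.2 and 9.46 in bulk, with no overlap. MRPL4 (2.20), MRPL49 (1.54) and MRPS34 (1.31) followed. MRPS31 (-3.37), MRPL50 (-2.86), MRPL47 (-2.80) and MRPS28 (-2.70) were the furthest below, and MRPS31 was detected in 4 of 10 rafts. The order of mean levels across the 75 members had a Spearman rho with bulk of 0.78 in rafts and 0.64 in C1 captures with 1 cell, a description over genes that share libraries.

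The members that stood high in rafts relative to bulk were rich in GC. Across the 75 members, rho between the difference from bulk and the mean GC of a gene's coding transcripts was 0.68, and across 8728 rows with a GC value it was 0.47. The 25 members with the lowest GC had a median difference of -1.36 and the 25 with the highest 0.10, beside -1.04 and 0.13 for all rows in the same GC ranges. In rafts the medians of members and of all rows lay near each other in both GC ranges. For C1 captures rho was 0.14 over 74 members and 0.20 over 8273 rows, and the 25 lowest and 25 highest stood at -2.15 and -1.65, beside -0.92 and -0.06 for all rows in those ranges. In captures the median of the members lay below that of all rows in both GC ranges. Members also had shorter coding transcripts, with a median length of 1108 bases beside 1950.5 for all rows in the comparison of captures with bulk. There rho between length and the difference from bulk was 0.11 over members and 0.25 over all rows. In rafts it was -0.05 and -0.01. The part of GC content or of transcript length in these differences was not tested.

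**Figure D3:**
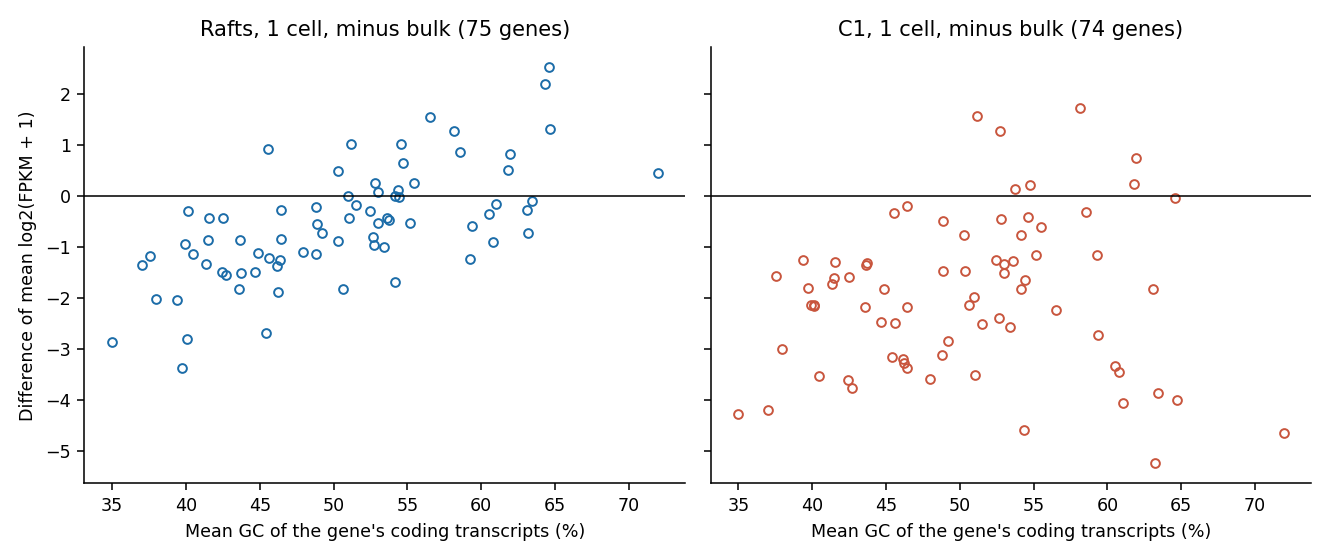
Each point is 1 member, placed by the mean GC of its coding transcripts (%, GENCODE release 29) and its difference from bulk in mean log2(FPKM + 1), for rafts with 1 cell on the left (75 genes) and C1 captures with 1 cell on the right (74 genes). The points rise with GC on the left (rho 0.68) and show little slope on the right (rho 0.14).

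With a second cell on a raft, the median difference of the members was smaller than that of all rows. Rafts with 2 cells against 1 cell gave a median of 0.27 over members and 0.40 over 10660 rows, with 10 members at least 2-fold higher (background 21.1%) and none lower (background 1.39%). The leading ones were MRPL47 and MRPS31 (1.81 each), MRPL3 (1.58) and MRPS26 (1.44). Each of these was missing in 1 to 6 of the 10 rafts with 1 cell, while MRPL47, MRPL3 and MRPS26 were detected in all 10 rafts with 2 cells. The lowest were MRPL49 (-0.59), MRPS35 (-0.44), MRPS18A (-0.41) and MRPS14 (-0.40). C1 captures with 2 cells against 1 cell gave a median of 0.20 over members and 0.14 over all rows, with 23 members at least 2-fold higher (background 17.9%) and 5 lower (background 8.56%).

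In the treatment arms the number of members detected ran from none to all 75. Of 32 proliferative rafts 12 had at least 70 members detected and 7 had at most 4. Of 32 nonproliferative rafts 6 had at least 70 and 15 had at most 4. The other 24 rafts of both classes lay between 5 and 69. The medians per arm were 14.5 and 3.5 members in the untreated arm, 72.5 and 46.5 in saline, 61.5 and 3.5 at 2 nM and 28 and 21.5 at 5 nM, the proliferative class first in each. Both classes overlapped in every arm.

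Rafts that ranked genes more like bulk held more members. Of the 64 rafts 34 had a Spearman rho with bulk of at least 0.25, 22 proliferative and 12 nonproliferative. Among these the members took a median of 1.56% of all FPKM in proliferative rafts (1.09 to 1.95%) and 1.59% in nonproliferative rafts (0.934 to 2.17%). The ranges overlapped almost fully, and the median numbers of members detected were 71.5 and 62. Among the other 30 rafts no proliferative one exceeded 14 members and no nonproliferative one 28. MRPL44, a large-subunit protein with an RNase III-like fold, was the member detected in most of these 30, in 9, while the median member was detected in 2. In 3 of them it was the only member detected.

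**Figure D4:**
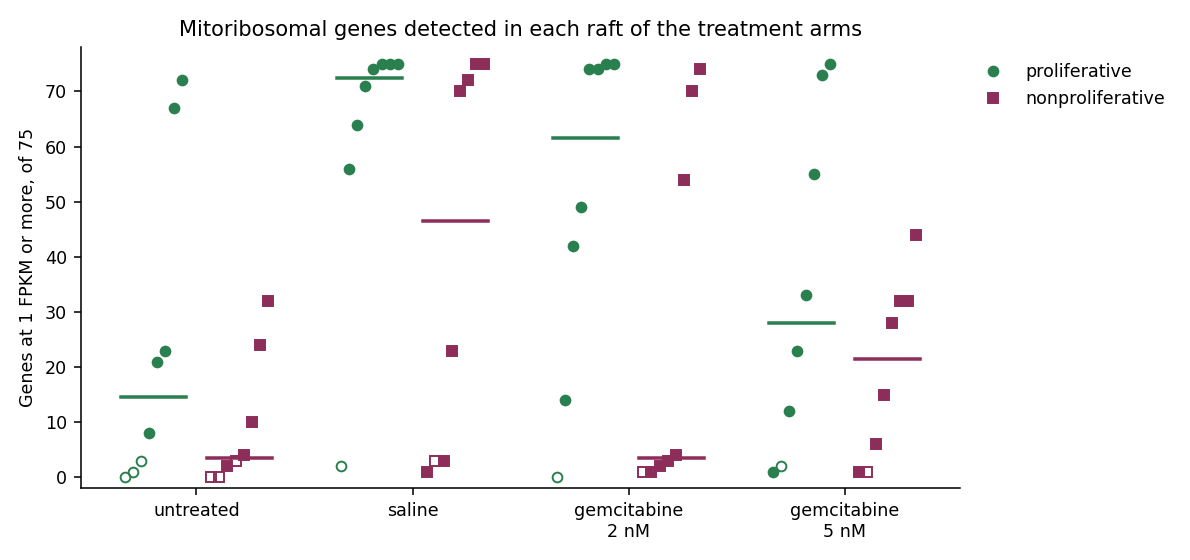
Each point is 1 raft, placed by treatment arm and class, with the members detected (of 75) on the vertical axis, and bars give medians of 8 rafts. Open symbols are the 12 rafts with fewer than 1000 detected rows, which the fit leaves out, and both classes reach from under 5 to over 20 members in each arm.

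Proliferative and nonproliferative rafts were compared with limma over all 8 groups, on 11560 rows and the 52 rafts with at least 1000 detected rows (26 of each class), with the difference averaged over the 4 arms. All 75 members passed the filter on low values. Higher in proliferative rafts at an adjusted p (limma, Benjamini-Hochberg over all rows) under 0.05 were 29 members, or 38.7% (background 11.4%). None was lower (background 0.753%), and 0 had a negative difference at an unadjusted p under 0.05. The difference was positive for 74 members, with a median of 1.94 against 0.58 over all rows. The cytosolic ribosomal proteins moved the same way, with 38 of 75 higher and a median of 3.10, as did the respiratory chain genes, with 25 of 73 and 2.35.

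The call depended on which rafts were kept. With the 34 rafts at a rho of at least 0.25, 3 members passed (MRPL9, MRPL28 and MRPL16) and 53 were positive, while 0.714% of all rows passed. The median there was 0.89 over members and 0.32 over all rows. With the number of detected rows as a covariate 6 members and 1.86% of all rows passed, and with at least 3000 detected rows (3 arms) no member and 1 row did. Quantile normalization moved the median of all rows from 0.58 to -0.02 and that of the members to 1.36. In that setting 16 members and 4.18% of all rows were higher. Without untreated proliferative replicate 3 there were 16 members (6.41% of all rows), and without replicate 4 of that group 19 (6.46%). The number called thus varied with the rafts kept and with the adjustment for detected rows. The 3 genes listed as marking blank libraries were lower in proliferative rafts (3 of 3, background 0.753%). That list was made with earlier results of these data known, so it gives no independent support. Of 9 duct epithelium markers 2 were higher (background 11.4%). The part of cell or RNA content in the result was not tested.

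Of the large subunit 21 of 48 members were higher. MRPL3, whose mutation is known in combined respiratory chain deficiency, reached 1 FPKM in 20 of the 26 rafts labelled proliferative and in 7 of the 26 others. Its median was 142 FPKM in the first class (0 to 1671) and 0 in the second (0 to 238). The range of the second class lay wholly within that of the first. The fitted difference was 3.76 ± 0.83 (SE) on the log2 scale (limma, adjusted p = 0.00273). MRPL28, a relative of bacterial L28, had medians of 162 (0 to 1869) and 0 FPKM (0 to 353) and differed by 4.17 ± 0.93 (limma, adjusted p = 0.00274).

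MRPS18A, the S18 relative of the large subunit, had medians of 294 and 0 FPKM and differed by 4.13 ± 0.97 (limma, adjusted p = 0.00431). MRPL9 differed by 3.79 ± 0.90 and MRPL16 by 3.85 ± 0.96 (limma, adjusted p = 0.00448 and 0.00617), both relatives of bacterial proteins. The highest single value of MRPL9 (6423 FPKM) was in a nonproliferative raft. MRPL1 differed by 2.44, MRPL41 by 3.24 and MRPL11, part of the platform where translation factors dock, by 2.48 (limma, adjusted p = 0.0184, 0.027 and 0.0488). MRPS30, a large-subunit protein, differed by 2.28 ± 0.85 and missed the threshold (limma, adjusted p = 0.0595).

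Of the small subunit 8 of 26 members were higher. MRPS34 was detected in 21 of 26 proliferative rafts (median 300 FPKM, up to 2590) and 10 of 26 nonproliferative rafts (median 0, up to 606), and differed by 3.79 ± 0.96 (limma, adjusted p = 0.00706). MRPS24, a relative of bacterial S3, differed by 4.12 ± 1.04, MRPS15 by 3.53 ± 0.93 and MRPS7, a disease gene of the small subunit, by 3.40 ± 0.95 (limma, adjusted p = 0.00726, 0.00947 and 0.0136). MRPS2 (2.41), MRPS18B (3.06) and MRPS16 (3.05), the last another disease gene, also passed (limma, adjusted p = 0.0171, 0.0209 and 0.0225). Values that did not pass were 1.76 for MRPS14, 1.66 for MRPS12 of the decoding centre, 1.65 for MRPS22 and 1.66 for MRPS18C (limma, adjusted p = 0.0812, 0.141, 0.146 and 0.227).

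At the other end stood MRPL44 with -0.21 ± 0.77, the only member with a negative value (limma, adjusted p = 0.862). It was detected in 16 of 26 rafts of each class. Above it came MRPL19 (0.60), MRPL17 (0.62), MRPS17 (0.96) and MRPL24 (1.28) among the 5 largest p, with adjusted p from 0.315 to 0.583 in limma. By the list of origins, 20 of 44 members classed as conserved and 7 of 28 classed as mitochondria-specific passed, with like medians of 1.93 and 2.02. The 29 that passed had a median transcript GC of 54.4% and a median bulk level of 131 FPKM, and the other 46 had 46.4% and 115 FPKM.

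**Figure D5:**
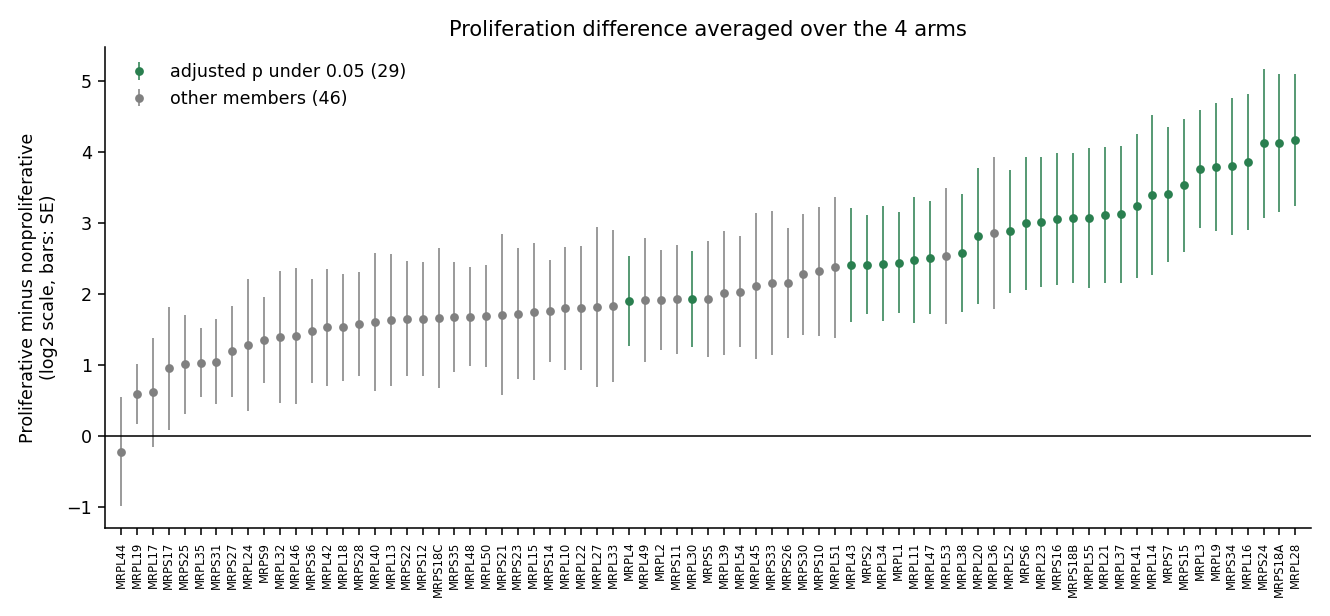
Each point is 1 of 75 members with its fitted difference between proliferative and nonproliferative rafts on the log2(FPKM + 1) scale, averaged over 4 arms, and bars give the SE. The 29 members with an adjusted p under 0.05 are in green, and all but MRPL44 lie above 0.

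Other genes of mitochondrial translation were counted by role in the same fit, where 11.4% of all rows were higher. Mitoribosomal proteins with other symbols gave 3 of 6: AURKAIP1 (5.04), GADD45GIP1 (3.58) and ICT1 (2.66), which frees stalled ribosomes. Translation factors gave 1 of 15, TUFM, the elongation factor that brings in charged tRNAs (3.21). Assembly factors gave 2 of 17, MTG1 (3.45) and MPV17L2 (2.18), tRNA synthetases 1 of 15, CARS2 (2.22), and mitochondrial transcription 0 of 5. The shares of translation factors (6.67%) and tRNA synthetases (6.67%) lay below that of all rows and the share of assembly factors (11.8%) close to it. None of these lists had a member that was lower.

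Within single arms no member passed. The share of all rows called higher was 0% in the untreated arm, 0% in saline, 0.0173% at 2 nM and 0% at 5 nM. The unadjusted p was under 0.05 for 13 members in the untreated arm (17.3%, beside 6.99% of all rows) and 18 in saline (24%, beside 11%). It was so for 22 members at 2 nM (29.3%, beside 11.7%) and 7 at 5 nM (9.33%, beside 8.91%), where the members thus stood near all rows. Without untreated proliferative replicate 5, 2 members passed in the untreated arm. No share of all rows is given for that count, so whether the members stood out there cannot be said. Median differences were 2.21, 2.82, 2.71 and 1.23, beside 0.66, 0.44, 0.65 and 0.54 over all rows, and 69, 73, 73 and 63 members were positive. At a rho of at least 0.25 the median was 0.29 in saline (50 positive) and turned to -0.06 at 2 nM (37 positive, 38 negative). MRPL3 was among the 3 smallest p in saline (3.75 ± 1.59) and at 2 nM (5.99 ± 1.59), with limma adjusted p of 0.452 and 0.195. MRPL1 led in the untreated arm (5.82 ± 1.61, adjusted p = 0.334, limma) and MRPS18B at 5 nM (5.42 ± 1.75, adjusted p = 0.296, limma).

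Proliferative rafts at 5 nM gemcitabine had lower values than saline rafts for nearly all members, with no call. At least 70 members were detected in 5 of 8 saline rafts and in 2 of 8 rafts at 5 nM. The part of detection in the difference was not tested. The fitted difference was negative for 74 of 75, with a median of -3.29 against -0.70 over all rows. No member passed (background 0.0692%, limma), while 33 (44%) had an unadjusted p under 0.05, beside 14.9% of all rows. Of all rows 0% were lower with at least 3000 detected rows, 0.0298% at a rho of at least 0.25 and 0.00865% with detected rows as a covariate. The median of the members in these settings is not given here, so whether -3.29 shrinks in them cannot be said. MRPS9, a relative of bacterial S9, was detected in 6 of 8 saline rafts (median 38.2 FPKM, up to 118) and 2 of 8 rafts at 5 nM (up to 6.93). It differed by -4.13 ± 1.16 (limma, adjusted p = 0.0911). MRPL19 differed by -2.83 ± 0.80 and MRPS12 by -5.11 ± 1.53 (limma, adjusted p = 0.0911 and 0.1). MRPL19 did not exceed 2.24 FPKM in any raft at 5 nM. Without 1 raft at 5 nM, replicate 2, which had all 75 members detected, 6 members passed, and without saline proliferative replicate 8, 1 did. No share of all rows is given beside these counts, so whether the members stood out from other rows cannot be said.

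In nonproliferative rafts 5 nM against saline had a median of -1.99, beside -0.83 over all rows, with 63 members negative and no calls (background 0%, limma). An unadjusted p under 0.05 was found for 12 members (16%), near the 13.1% of all rows. MRPS9 was listed at 0 in all 8 rafts at 5 nM and detected in 4 of 8 in saline (-3.29 ± 1.16, adjusted p = 0.335, limma). MRPS34 (-4.81 ± 1.83) and MRPL1 (-3.33 ± 1.36) had the next smallest p, with the same adjusted p. With 4 saline and 3 gemcitabine rafts at a rho of at least 0.25, 5 members were lower in limma, MRPS34, MRPL9, MRPL39, MRPS6 and MRPL14. In that setting 0.962% of all rows were lower, and the median was -3.06 over members and -1.34 over all rows.

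At 2 nM the medians were -1.30 in proliferative and -1.08 in nonproliferative rafts, beside -0.36 and -0.66 over all rows, with no calls (background 0% in both, limma). An unadjusted p under 0.05 was found for 2 members (2.67%) and 4 (5.33%), close to the 3.81% and 5.3% of all rows. The direction in nonproliferative rafts turned with the setting, to 0.91 with at least 3000 detected rows and 0.22 with detected rows as a covariate. In proliferative rafts the median came to -0.07 with at least 3000 detected rows. MRPL19 (-2.11), MRPL47 (-3.11) and MRPS9 (-2.08) had the smallest p in proliferative rafts, and MRPL35 (-2.27), MRPS9 (-2.65) and MRPL50 (-3.08) in nonproliferative rafts. Both doses share the saline rafts. Whether the effect of the drug differed between classes was tested as an interaction, and no member passed at either dose, with 0 members at an unadjusted p under 0.05 for 2 nM and 3 (4%) for 5 nM, beside 2.6% and 3.14% of all rows (limma). Saline against the untreated arm had medians of 3.05 in proliferative and 2.69 in nonproliferative rafts, beside 0.96 and 1.22 over all rows, with no members called higher (background 0.00865% and 0%). An unadjusted p under 0.05 was found for 30 (40%) and 29 members (38.7%), beside 14.2% and 14.6% of all rows (limma). With at least 3000 detected rows the proliferative median was 0.32.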

How the data were processed

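The authors deposited 1 table of 30504 rows and 120 samples, read here as FPKM. Its header names no unit, and its totals (339644 to 817990) differ between libraries, which TPM totals would not. The submitters' processing notes name RSEM and hg19 without a version or role. Libraries were made with SMARTer and Nextera XT kits, per the labels' protocols. Groups, doses and replicates came from the labels. The members and the gene lists were chosen with earlier results of these data known. Arms were fitted with limma 3.58.1 (limma-trend, R 4.3.3, two-sided) on log2(FPKM + 1), without imputation, after leaving out rafts with fewer than 1000 detected rows and rows detected in fewer than 8 of the rest. The fit was also run on simulated data, and the outcome is not given here. That run cannot show how the p-values behave in rafts with many undetected genes. The rank correlation of a library with bulk is Spearman's, over 10767 rows. Isolation groups were compared by means of log2(FPKM + 1) with no test. Named genes were those with the smallest and largest p for proliferation, the highest and lowest in bulk, the largest differences in isolation comparisons, the smallest p under gemcitabine, and a list of known disease and structural genes. GENCODE release 29 and RefSeq are on GRCh38, so they served only for GC, overlaps and promoters. Alternatives covered pseudocounts, filters, scaling, libraries kept and leaving out each library.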

Additional observations from a re-analysis of the deposited data

Results flagged for a closer look

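A group of 4 to 10 libraries was looked at again where 1 library stood far from the rest by Dixon's criterion, which chance meets in about 1 of 20 groups. Of 42 groups 9 met it. In bulk, replicate 1 had 73 members detected against 75 in each of the others, and MRPL4 was listed at 0 there against 6.71 to 7.92 FPKM. The member share of all FPKM was 1.61% in empty C1 capture replicate 3, where MRPL33 alone made up 87.3% of it, and 0.224% or less in the other empty captures. It was 4.52% in water replicate 3, from 2 detected members, against at most 1.54% in the others. Untreated proliferative replicate 6 had a share of 3.55% from 3 members, and nonproliferative replicate 6 at 5 nM had 6.69% from 15. At the low end, saline proliferative replicate 5 had 2 members detected and a share of 0.0365%, against at least 56 members and 1.38% in the other 7 rafts. Proliferative replicate 8 at 2 nM had a share of 0%. High shares thus occurred in libraries with few members detected.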

How the results depend on the processing

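No paired analysis was possible because the proliferative and nonproliferative rafts share no replicate numbers in the labels. Members called higher in proliferative rafts numbered 29, beside 11.4% of all rows. They fell to 14 with no filter on low values (3.57% of all rows), 11 with all 64 libraries (5.22%) and 16 with quantile normalization (4.18%). With detected rows as a covariate 6 passed (1.86%), and 3 did at a rho of at least 0.25 (0.714%). Without saline nonproliferative replicate 3 and nonproliferative replicate 7 at 5 nM, 19 passed (8.45% of all rows). These rafts had 10424 and 10198 detected rows and a negative rho. With at least 3000 rows 0 passed (0.00941% of all rows). These last 2 alternatives were chosen after seeing the data, and the latter averages 3 arms because the untreated arm kept no nonproliferative raft. Leaving out 1 raft gave 16 (without untreated proliferative replicate 3, 6.41% of all rows), 19 (without replicate 4, 6.46%) to 39 (16.4%). Within arms, 2 members passed in the untreated arm at a rho of at least 0.25 (0.565% of all rows higher), and 0 to 2 without 1 raft. At 5 nM 1 passed at that rho (0.446% of all rows higher) and 1 with at least 3000 rows (0.282%). For 5 nM against saline, 0 to 6 proliferative members were lower without 1 raft. Of the nonproliferative ones 3 were lower with at least 3000 rows (1.4% of all rows) and 5 at that rho (0.962%). Saline against untreated gave 1 higher with all 64 libraries (proliferative, 0.644% of all rows) and 2 at that rho (nonproliferative, 0.873%). No share of all rows is given for single arms or doses without 1 raft, so those counts cannot be set against all rows. The causes were not tested. The median of C1 minus bulk was -2.18 and -1.43 with pseudocounts of 0.1 and 10, and that of rafts minus C1 with 2 cells 0.93 with 10. At 5 FPKM, 74.3 members were detected in rafts with 2 cells and 61.2 in C1 captures with 1. Over protein-coding names alone, shares were 1.93% in bulk, 1.10% in C1 captures with 1 cell and 1.08% with 2. Title series 2 reversed MRPL44 in rafts with 1 cell minus bulk (0.61) and with 2 minus 1 cell (-0.67), and series 1 reversed MRPS26 in the latter (-0.16). Depth is unknown, so undetected members may be present below detection.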
